A study of Mus musculus with 6 samples.

Results

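The genes described here are Polr2a, which encodes the largest subunit of RNA polymerase II (Pol II), and 8 factors that govern how paused Pol II is released into elongation: Cdk9, Ccnt1, Ccnt2, Hexim1, Larp7, Supt5, Nelfe and Cdk12. Their rows were taken by symbol from the table of 22081 genes, and all 9 were found and passed the filter on low values, which left 18562 genes for testing. The 9 genes were selected on earlier results of the same comparison, so the differences between groups are a description of these libraries: no p is given for the 9 genes, and the number past the threshold is printed only beside the share of all tested genes. Muscle stem cells (MuSCs), which rest along muscle fibres and repair them after injury, were profiled by RNA-seq directly after isolation in 3 control and 3 Taf4asKO libraries, all from C57BL/6 mice. The control libraries are titled WT with the genotype given as Control, and the labels do not say whether those mice carried floxed Taf4a alleles (Taf4 in current nomenclature, a subunit of the general transcription factor TFIID). Taf4asKO mice carried floxed Taf4a alleles and Pax7CreERT, a Cre recombinase driven from Pax7 and activated by tamoxifen, which removes exons 11 and 12 of Taf4a in Pax7-expressing cells. The study defines its controls in general as littermates with the floxed alleles, with or without the Cre allele, without naming these libraries. The labels do not say how many animals stand behind a library. The study used adult mice of both sexes in general, and ages of single libraries are not given in the sources used here.

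Pol II initiates at a promoter and often pauses a short distance downstream, held by DSIF (Supt5 with Supt4a) and by NELF (Nelfe is a subunit). The kinase P-TEFb, made of Cdk9 and cyclin T1 or T2, phosphorylates DSIF, NELF and the C-terminal domain (CTD) of POLR2A and releases the polymerase. A large share of P-TEFb is kept inactive in a ribonucleoprotein built on 7SK RNA, in which LARP7 holds the RNA and HEXIM1 inhibits CDK9, and CDK12 phosphorylates the CTD further along the gene.

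The promoters of the 3 genes with the largest differences between groups are printed because the study followed TAF4A at promoters together with the factors NF-Y and SP1. Each stretch runs from 250 bases before to 50 bases after the start site, 5′ to 3′ on the strand of the gene, as given by RefSeq for GRCm38.p6. Capitals mark the letters CCAAT for NF-Y, GGGCGG for Sp1 and TATAAA for the TATA box, each searched on both strands, so that a match on the other strand reads ATTGG for NF-Y, the letters CCGCCC for Sp1 and, for the TATA box, the letters TTTATA. The windows are chr11:69758584-69758883 (minus strand) for Polr2a, chr11:103116075-103116374 (plus strand) for Hexim1 and chr3:127553300-127553599 (minus strand) for Larp7.
Polr2a: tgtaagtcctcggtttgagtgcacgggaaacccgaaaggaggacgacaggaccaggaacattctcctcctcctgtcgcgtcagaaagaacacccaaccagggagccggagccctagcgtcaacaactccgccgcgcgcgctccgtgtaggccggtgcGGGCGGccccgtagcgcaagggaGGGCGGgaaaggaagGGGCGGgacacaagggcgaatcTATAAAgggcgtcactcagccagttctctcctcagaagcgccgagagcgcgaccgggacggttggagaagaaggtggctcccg
Hexim1: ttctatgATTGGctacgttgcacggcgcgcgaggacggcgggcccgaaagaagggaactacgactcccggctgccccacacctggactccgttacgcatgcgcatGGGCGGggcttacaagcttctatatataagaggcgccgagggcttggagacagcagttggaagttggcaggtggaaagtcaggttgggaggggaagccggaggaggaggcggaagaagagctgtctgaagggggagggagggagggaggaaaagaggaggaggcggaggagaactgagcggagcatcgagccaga
Larp7: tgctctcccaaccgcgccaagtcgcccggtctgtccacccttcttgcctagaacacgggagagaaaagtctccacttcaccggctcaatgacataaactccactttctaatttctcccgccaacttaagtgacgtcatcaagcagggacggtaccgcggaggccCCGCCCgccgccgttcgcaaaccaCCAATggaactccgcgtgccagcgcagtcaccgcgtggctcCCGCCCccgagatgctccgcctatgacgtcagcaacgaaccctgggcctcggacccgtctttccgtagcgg

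The Polr2a window held GGGCGG 3 times, at -93, -70 and -55 (first base of the match, counted from the start site), followed by TATAAA at -33, and no CCAAT on either strand. The Hexim1 window held ATTGG at -243 and GGGCGG at -145. In Larp7, CCAAT lay at -62 between CCGCCC at -86 and -21. G and C made up 63.7%, 61.0% and 61.7% of these windows, against a median of 52.7% over 32817 promoters of the same length. Promoters were matched by symbol for 8 of the 9 genes, all but Nelfe. The Sp1 letters were present in all 8 (35.6% of all promoters), the NF-Y letters in 4, namely Cdk9, Ccnt2, Hexim1 and Larp7 (37.4% of all promoters), and the TATA letters in Polr2a alone (13.6% of all promoters). In Ccnt2, the ATTGG at -26 shares 1 base with the GGGCGG at -22. These are matches of exact letters and not measured binding sites. The Hexim1 window also holds tatataag, which differs from TATAAA and was not counted. The Hexim1 gene start given below, 103116231, lies in this window ahead of the start site used, so its motif positions depend on that choice.

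**Figure D1:**
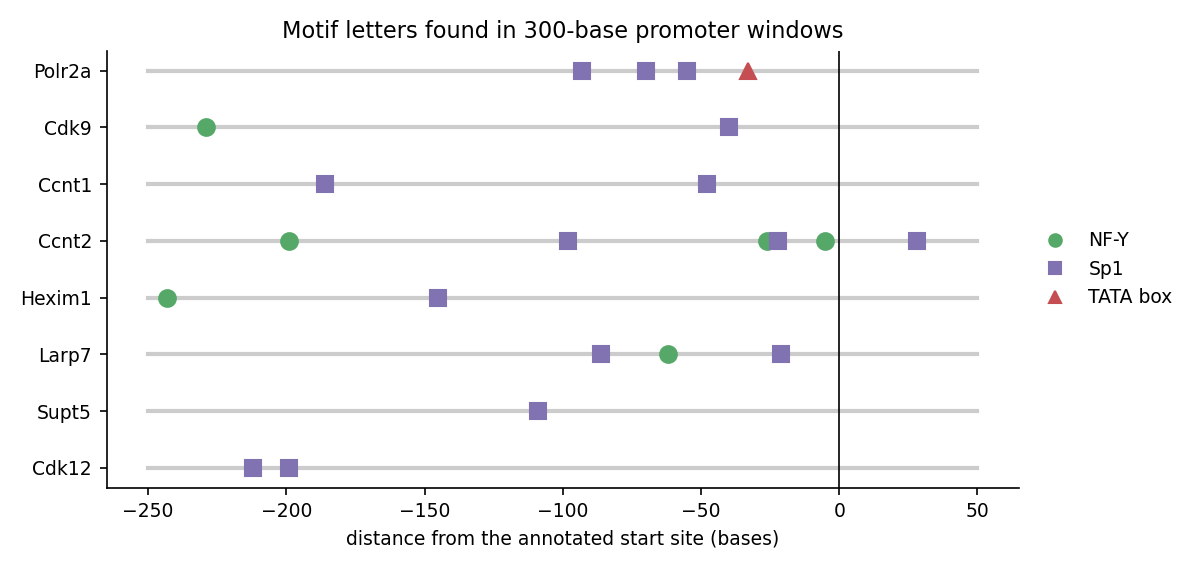
Position of each motif match (x axis, bases from the annotated start site) in the promoter windows of 8 genes. Circles mark NF-Y letters, squares Sp1 letters and the triangle the TATA letters. All 8 windows hold Sp1 letters, 4 hold NF-Y letters and Polr2a alone has the TATA letters, at -33.

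Polr2a showed the largest difference among the 9 genes. It had 2256, 2917 and 2617 normalized counts in the control libraries (replicates 1, 2 and 3) against 15658, 12679 and 12945 in those labelled Taf4asKO. Every Taf4asKO library was therefore far above every control library. Means of 2597 ± 331 and 13761 ± 1649 (SD, n = 3 per group) differed by a ratio of 5.30, a log2 fold change of 2.41 (SE 0.12). All fold changes are of normalized count + 1, Taf4asKO over control. Ranked from the highest log2 fold change down, Polr2a was number 25 of the 18562 tested genes, and number 9 when ranked from the largest increase in mean normalized counts down. The gene (ENSMUSG00000005198, mm10 chromosome 11, 69733997 to 69758637, minus strand) has 29 exons in its longest transcript and 7067 exonic bases in all.

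The difference was also present inside each library, where scaling between libraries plays no part. Polr2a made up 0.0274%, 0.0337% and 0.0319% of the nuclear protein-coding counts in control and 0.181%, 0.152% and 0.157% in Taf4asKO. It was the 668th, 470th and 524th most counted protein-coding gene in control, and the 36th, 46th and 47th in Taf4asKO. No library of either group reached into the range of the other by share or by rank.

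The other 11 subunits of Pol II, which assemble with POLR2A into a complex of fixed composition, showed no comparable difference. None of the 11 passed the threshold (an adjusted p below 0.05 in limma with at least a 1.3-fold difference), beside 12.6% of all tested genes. An unadjusted p under 0.05 was seen for 3, and the median log2 fold change of the 11 was 0.08 (range -0.46 to 0.58). Polr2b, the second largest subunit, had 872, 1089 and 752 normalized counts in control against 1194, 1182 and 1137 in Taf4asKO. Its log2 fold change was 0.39 (SE 0.13, limma adjusted p 0.0822), and it passed only when the replicate number was a block in the fit (adjusted p 0.0294) or when control replicate 2 was left out (log2 fold change 0.53, adjusted p 0.00899). Per kb of exon, Polr2a exceeded Polr2b by a ratio of 1.71, 1.77 and 2.30 in control and of 8.66, 7.08 and 7.52 in Taf4asKO. Against the median of the 11 other subunits per kb, the Polr2a ratio was 4.97, 4.09 and 5.13 in control and 34.4, 30.3 and 27.6 in Taf4asKO. Of the per-kb total of the 12 subunits, Polr2a held 26.9%, 27.0% and 30.5% in control and 69.3%, 65.0% and 64.2% in Taf4asKO.

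**Figure D2:**
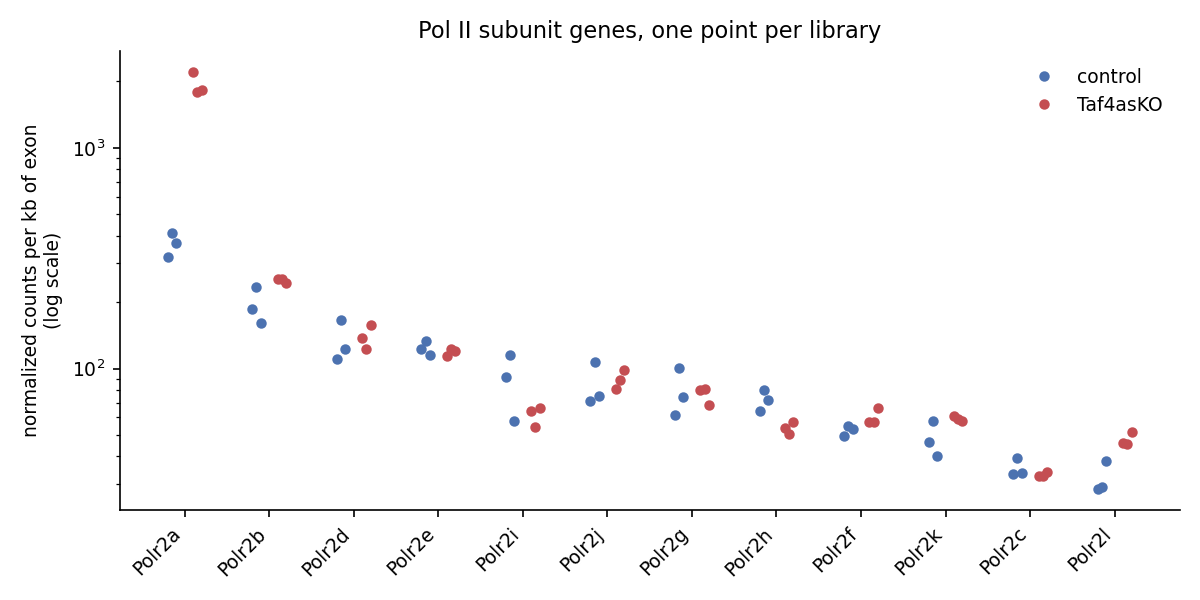
Normalized counts per kb of exon (log axis) of Polr2a and the 11 other Pol II subunit genes, 1 point per library, 3 control (blue) and 3 Taf4asKO (red). Polr2a in Taf4asKO lies between 1794 and 2216 per kb, apart from its control points of 319 to 413 and from every other subunit.

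P-TEFb subunits differed little. Cdk9, the catalytic subunit, had 361, 376 and 349 normalized counts in control against 334, 320 and 302 in Taf4asKO, so that the highest Taf4asKO value lay just under the lowest control value. The means of 362 ± 13.5 and 319 ± 16.0 gave a log2 fold change of -0.18 (SE 0.11). Ccnt1, which encodes cyclin T1, was slightly higher in Taf4asKO, with 909, 1010 and 965 against 1225, 1146 and 1051, again without overlap. Its log2 fold change was 0.25 (SE 0.10). Ccnt2, which encodes the alternative cyclin T2, overlapped between groups, with 776, 757 and 762 in control and 772, 820 and 841 in Taf4asKO, a log2 fold change of 0.08 (95% confidence interval -0.13 to 0.29). The per-kb ratio of Ccnt1 to Ccnt2 was 1.58, 1.80 and 1.71 in control and 2.14, 1.88 and 1.68 in Taf4asKO, and these ranges overlapped.

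The 2 protein components of the 7SK complex among the 9 genes went in opposite directions. Hexim1, the inhibitor of CDK9, had 2605, 2703 and 2645 normalized counts in control against 4639, 4129 and 4613 in Taf4asKO. All 3 Taf4asKO libraries were above all control libraries, and the control libraries lay close together. Means of 2651 ± 49.3 and 4460.3 ± 287 (SD, n = 3) gave a log2 fold change of 0.75 (SE 0.09). Hexim1 is a gene of 1 exon (ENSMUSG00000048878, chromosome 11, 103116231 to 103119725, plus strand). Larp7, which binds and stabilizes 7SK RNA, had 394, 544 and 454 in control and 261, 267 and 248 in Taf4asKO. The Taf4asKO libraries were all below the lowest control library, and control replicate 2 was the highest. Means of 464 ± 75.5 and 259 ± 9.71 gave a log2 fold change of -0.83 (SE 0.14). Larp7 (ENSMUSG00000027968, chromosome 3, 127536714 to 127553349, minus strand) holds the miR-302 cluster in its introns on the opposite strand, with 0 shared exon bases.

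Set against each other in each library, Hexim1 per kb was 4.48, 3.36 and 3.94 times Larp7 per kb in control and 12.03, 10.5 and 12.6 times in Taf4asKO. Hexim1 per kb was 9.52, 9.48 and 10.0 times Cdk9 in control and 18.3, 17.0 and 20.2 times in Taf4asKO. The other parts of the 7SK complex, which are not among the 9 genes, did not pass the threshold. The 7SK RNA itself (Rn7sk) had 13269, 13575 and 14760 normalized counts in control against 14471, 14906 and 14429 in Taf4asKO, a log2 fold change of 0.08 (limma adjusted p 0.649). Mepce, which caps 7SK, gave -0.07 (limma adjusted p 0.719). The paralog Hexim2 was low, at 31 to 56 normalized counts over the 6 libraries, with a log2 fold change of -0.40 (limma adjusted p 0.319). The per-kb ratio of Hexim1 to Hexim2 lay between 32.8 and 43.1 in control and between 78.7 and 90.4 in Taf4asKO.

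Of the pausing factors, Supt5, the large DSIF subunit, overlapped between groups with 1817, 1939 and 1939 normalized counts in control against 2082, 1917 and 2057 in Taf4asKO. Its log2 fold change was 0.09 (95% confidence interval -0.11 to 0.29). Nelfe, the RNA-binding subunit of NELF, was lower in every Taf4asKO library, with 207, 226 and 205 against 179, 143 and 179. The log2 fold change of Nelfe was -0.35 (SE 0.15), and it had the lowest counts of the 9 genes. None of the 5 listed partners of Supt5 and Nelfe passed the threshold in limma, beside 12.6% of all tested genes, and 1 had an unadjusted p under 0.05. Among these partners Supt4a gave a log2 fold change of 0.15 (limma adjusted p 0.637), Nelfa of -0.12 (0.657), Nelfb of -0.32 (0.125) and Nelfcd of -0.19 (0.416).

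Cdk12, the elongation-stage CTD kinase, overlapped throughout, with 2087, 1659 and 1863 normalized counts in control against 1991, 1691 and 1747 in Taf4asKO. In both groups replicate 1 was the highest and replicate 2 the lowest. The log2 fold change was -0.04 (95% confidence interval -0.29 to 0.21). Its paralog Cdk13 (log2 fold change 0.11, limma adjusted p 0.552) and their partner cyclin K, Ccnk (-0.08, limma adjusted p 0.728), did not pass the threshold. Per kb, Cdk12 was 1.24, 1.16 and 1.32 times Cdk13 in control and 1.136, 1.05 and 1.17 times in Taf4asKO.

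**Figure D3:**
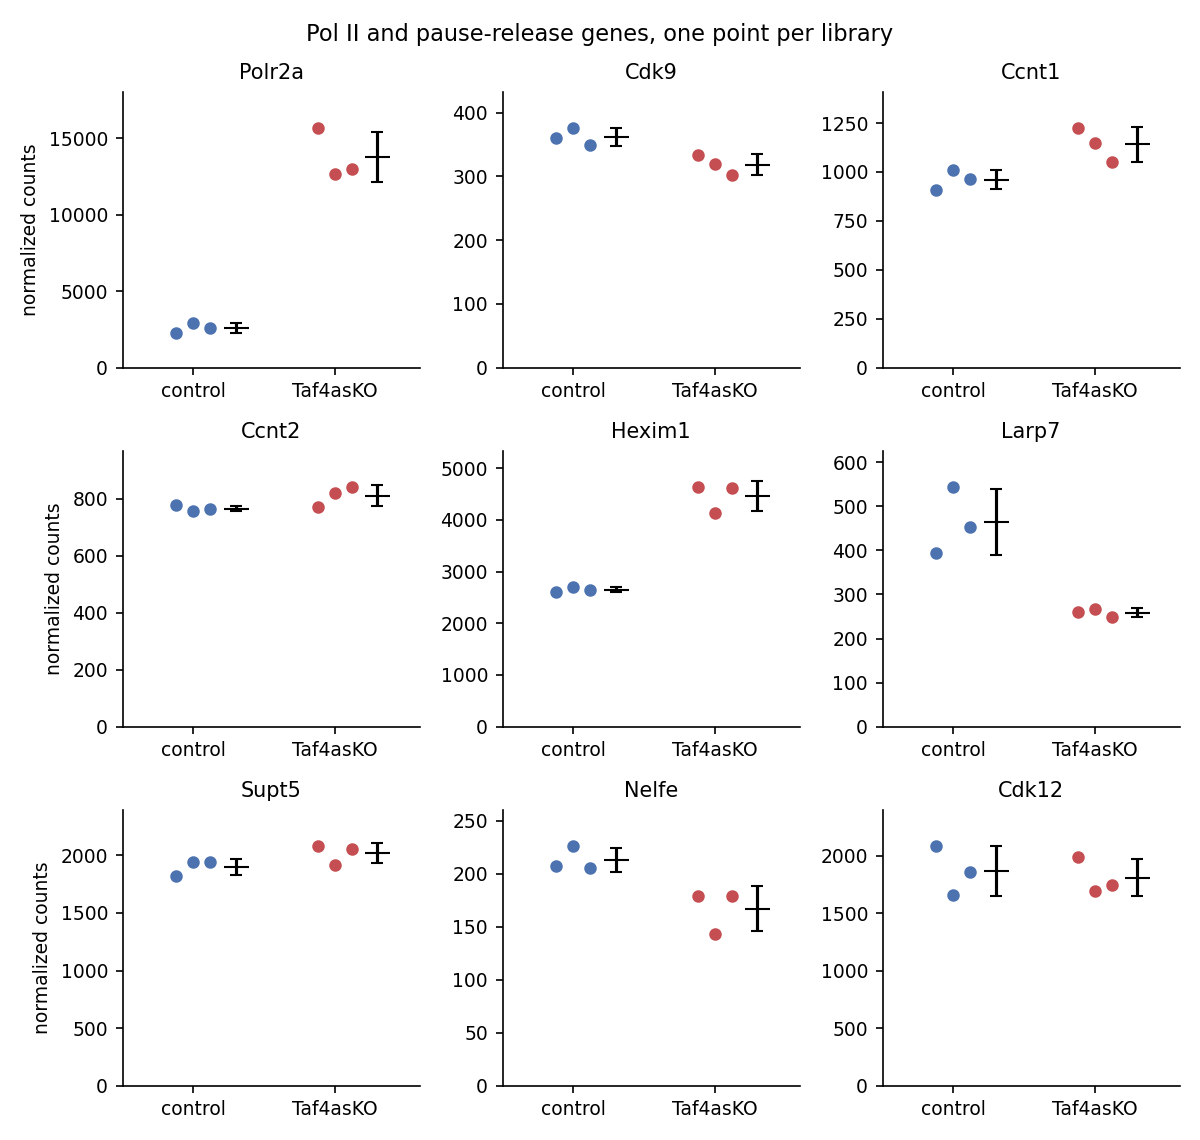
Normalized counts of the 9 genes (y axes start at 0), 1 point per library in replicate order, with mean and SD (black, n = 3) for control (blue) and Taf4asKO (red). Polr2a and Hexim1 are higher and Larp7 lower in all 3 Taf4asKO libraries, while Ccnt2, Supt5 and Cdk12 overlap.

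Counted over the set, 3 of the 9 genes passed the threshold, 2 higher (Polr2a and Hexim1) and 1 lower (Larp7), where 12.6% of all tested genes passed, 5.93% higher and 6.71% lower. With the replicate number as a block, 3 of 9 passed, where 18.1% of all tested genes did. The groups did not overlap for 6 of 9 genes, 3 higher (Polr2a, Hexim1, Ccnt1) and 3 lower (Larp7, Cdk9, Nelfe), where 33.0% of all tested genes did not overlap. Because the genes were selected on this contrast, nothing is read from these counts. The median log2 fold change of the 9 was 0.08, and that of all tested genes 0.004, with quartiles at -0.33 and 0.29. The log2 fold changes of the 6 genes that did not pass lay between -0.35 and 0.25.

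The genes without large differences lie on several chromosomes (mm10): Cdk9 on chromosome 2 (32707438 to 32712784, minus strand), Ccnt1 on chromosome 15 (98538689 to 98570923, minus strand), Ccnt2 on chromosome 1 (127774164 to 127808061, plus strand), Supt5 on chromosome 7 (28314894 to 28338719, minus strand), Nelfe on chromosome 17 (34850391 to 34856372, plus strand) and Cdk12 on chromosome 11 (98203059 to 98251564, plus strand).

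Levels between genes were compared per kb of exon in the control libraries, which the contrast does not enter. Hexim1 was highest at 759 ± 14.1 normalized counts per kb (SD, n = 3), followed by Polr2a at 367 ± 46.8 and Supt5 at 329 ± 12.2. Polr2a and Supt5 overlapped between libraries. Larp7 (196 ± 31.9) and Cdk12 (159 ± 18.3) came next and overlapped with each other, as did Ccnt1 (105 ± 5.53) and Nelfe (102 ± 5.58). Cdk9 (78.5 ± 2.93) and Ccnt2 (62.0 ± 0.798) were lowest, each without overlap with its neighbour in the order. In Taf4asKO, Polr2a stood first at 1947 ± 233 per kb and Hexim1 second at 1276 ± 82.2, and Larp7 stood at place 6 in place of 4, at 109 ± 4.11. Supt5, Nelfe, Cdk9 and Ccnt2 kept places 3, 7, 8 and 9. Of neighbours in the Taf4asKO order, only Nelfe (68.9 to 86.2) overlapped with Cdk9 (65.5 to 72.4), and Cdk9 with Ccnt2 (62.5 to 68.1). The order depends on the length used: per kb of the longest transcript, Supt5 (506) stood above Polr2a (385), Cdk12 (316) above Larp7 (219) and Nelfe (132) above Ccnt1 (129.96), with Hexim1 still first. Replicates varied most in Larp7 in control (coefficient of variation 16.3%), in Polr2a in both groups (12.7% and 11.98%) and in Nelfe in Taf4asKO (12.4%).

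**Figure D4:**
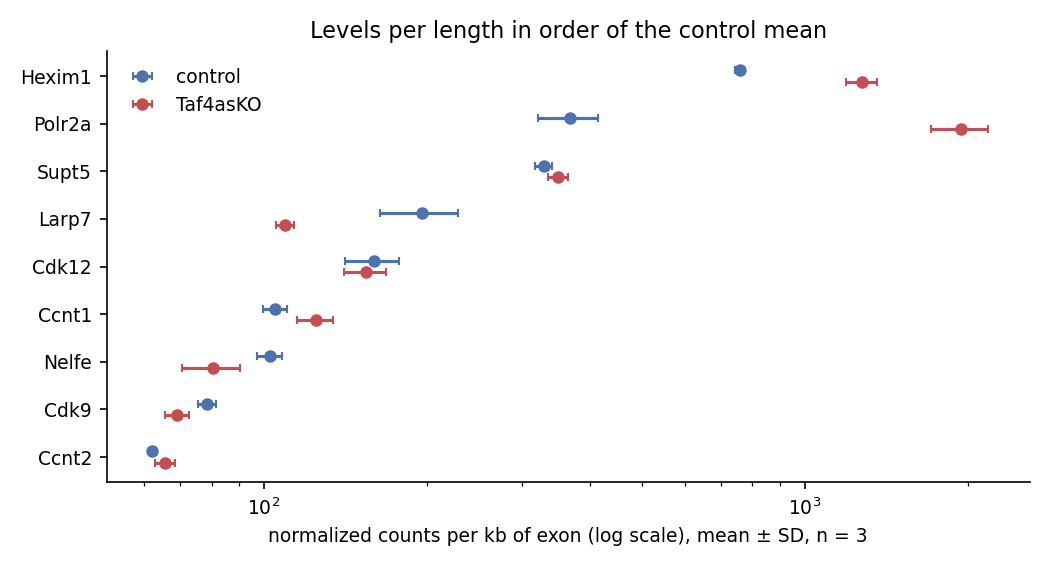
Mean ± SD (n = 3) of normalized counts per kb of exon (log axis) of the 9 genes in control (blue) and Taf4asKO (red), ordered by the control mean. Hexim1 leads in control at 759 and Polr2a in Taf4asKO at 1947 per kb.

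The surrounding machinery was described by 7 lists of genes with known roles in Pol II transcription. These lists were chosen with earlier results of these data known, so nothing is read from how many of their genes passed. Of their 77 genes, all tested, 6 rose and 2 fell (7.79% and 2.6%, against 5.93% and 6.71% of all tested genes), and the median log2 fold change was 0.06. Ell2, an elongation factor of the super elongation complex that carries active P-TEFb, rose from 167, 99 and 166 to 543, 350 and 291 normalized counts (log2 fold change 1.44 with SE 0.26, limma adjusted p 0.00648). Aff1, a scaffold of the same complex, rose from 1486, 1126 and 1525 to 2117, 1836 and 2032 (0.54, limma adjusted p 0.0216), whereas its paralog Aff4 gave 0.11 (limma adjusted p 0.480). Brd2, a bromodomain protein, rose by 0.46 on the log2 scale (limma adjusted p 0.0403). Rprd1a, a CTD-binding protein, rose from 235, 251 and 237 to 394, 407 and 387 (0.71, limma adjusted p 0.00345), and Ssu72, a CTD phosphatase, rose by 0.57 on the log2 scale (limma adjusted p 0.0417). Of 14 elongation factors 1 passed, the PAF complex subunit Cdc73, which rose by 0.41 on the log2 scale (limma adjusted p 0.0188). Paf1 of the same complex gave 0.376 (limma adjusted p 0.0363), just under the 1.3-fold limit, and passed without control replicate 1. The other listed subunits of that complex did not pass. Of 16 genes of Integrator and termination, Ints7 fell by 0.51 (limma adjusted p 0.0154) and Ints13 by 0.46 (limma adjusted p 0.0238) on the log2 scale, both subunits of the Integrator complex, which cleaves nascent RNA at paused Pol II. With the replicate block, Polr2b and Ints6 (log2 fold change 0.63, blocked adjusted p 0.00388, named for this change of call) also passed as higher. Leaving out each library gave 0.38 to 0.83 for Ints6, which also passed without control replicate 1 (limma adjusted p 0.0388). Ell2 and Rprd1a passed in each fit that left out 1 library. The other calls were lost when any 1 of the 3 Taf4asKO libraries was left out, with adjusted p from 0.0596 to 0.0892 for Aff1 and from 0.0593 to 0.0693 for Ints7. Leaving out control replicate 1 also ended the call of Ints13 (adjusted p 0.0716 to 0.101 over these 4 fits), and leaving out control replicate 1 or 3 that of Ssu72 (0.0660 to 0.155 over 5 fits). Cdc73 gave 0.0698 to 0.0886 without a Taf4asKO library and, without control replicate 3, a log2 fold change of 0.37 that is under the fold limit. Brd2 lost its call without any 1 of the 6 libraries (0.0536 to 0.101). Under total-count scaling Aff1 and Brd2 did not pass (adjusted p 0.0629 and 0.0858), nor under upper-quartile scaling (0.0506 and 0.0623).

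**Figure D5:**
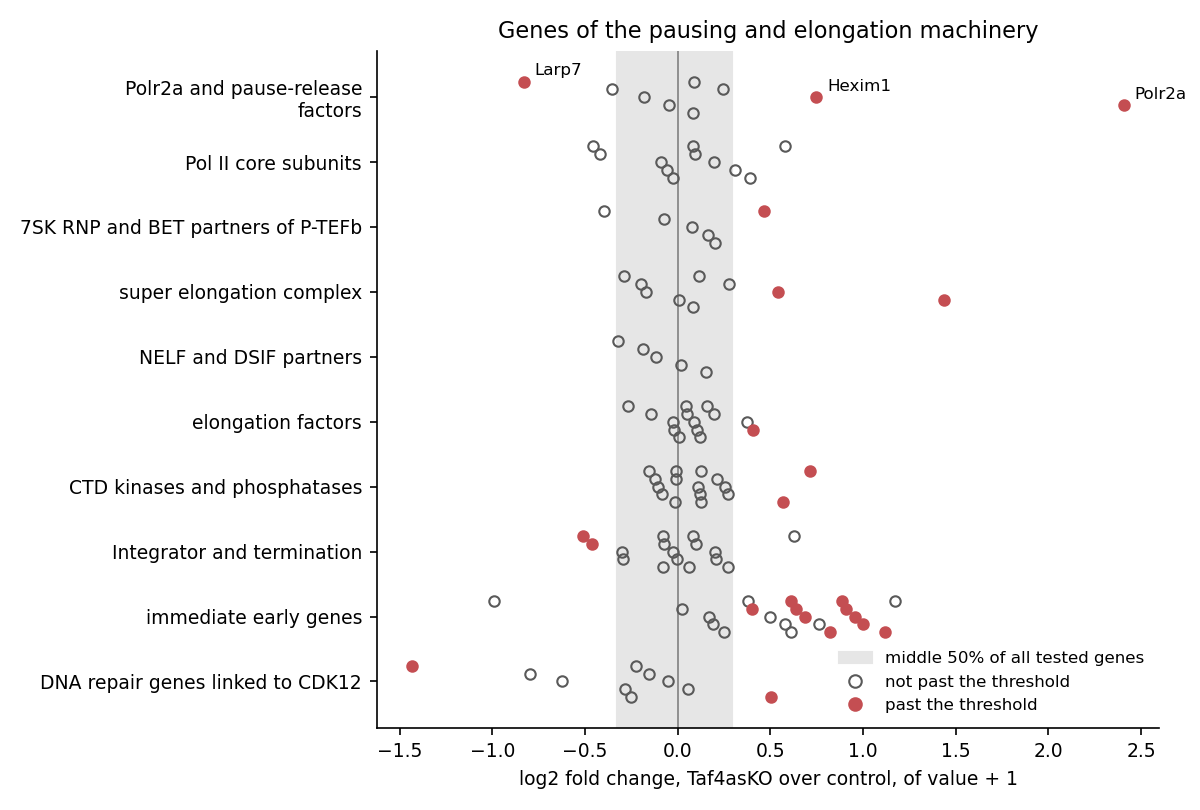
Log2 fold change (x axis, Taf4asKO over control, of normalized count + 1) of each gene in the set of 9 and in 9 lists, with filled points past the threshold and the grey band between the quartiles of all 18562 tested genes. Polr2a at 2.41 lies beyond every other gene drawn, and the Pol II subunits and NELF and DSIF partners have no filled point.

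A pair of lists of genes whose transcription is known to lean on these factors was also read. They too were chosen with earlier results of these data known, so nothing is read from how many passed. Immediate early genes, which carry paused Pol II and respond within minutes to outside signals, passed as higher for 10 of 21 and as lower for 0 (47.6% of the list, where 5.93% of all tested genes passed as higher and 6.71% as lower), with a median log2 fold change of 0.61. With the replicate block, 15 passed as higher and 1 (Fosl1, -0.99) as lower, where 18.1% of all tested genes passed in either direction. Fos rose from 49708, 46200 and 46002 to 95238, 78804 and 77365 normalized counts (0.82, limma adjusted p 0.00399). Zfp36 rose by 1.12, Dusp1 by 0.96, Junb by 0.91 and Ier2 by 0.61 on the log2 scale (limma adjusted p 0.00372, 0.000998, 0.00191 and 0.00299). These 5 passed in each fit that left out 1 library, and 6 of the 21 genes passed without Taf4asKO replicate 1. Of 10 DNA repair genes linked to CDK12, Atm rose from 727, 873 and 902 to 1109, 1195 and 1237 (0.51, limma adjusted p 0.0163) and Brca1 fell from 96, 99 and 49 to 24, 37 and 25 (-1.43, limma adjusted p 0.0172). Atm did not pass without Taf4asKO replicate 2 or 3 (adjusted p 0.0834 and 0.0863), nor Brca1 without control replicate 1 (0.0508) or Taf4asKO replicate 1 or 3 (0.0656 and 0.0735).

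The genes whose log2 levels were most like those of Polr2a over the 6 libraries, among 6934 genes whose mean reached 200, were D10Jhu81e (Pearson r 0.998), Acss3 (0.998), Gtf2a1 (0.998), Anxa2 (0.998) and Ddx42 (0.997). These correlations are a description over 6 libraries of 2 groups, and 333 genes had r above 0.95. Gtf2a1, which encodes a large subunit precursor of TFIIA, a partner of TFIID at promoters, had 651, 785 and 731 normalized counts in control against 1604, 1444 and 1520 in Taf4asKO, a log2 fold change of 1.08. Acss3 had a log2 fold change of 0.996, Anxa2 of 0.51, D10Jhu81e of 0.40 and Ddx42 of 0.23. Among the 9 genes themselves, r with Polr2a was 0.992 for Hexim1 and -0.914 for Larp7, values that restate the difference between groups on which the genes were selected. For deviations from the group means, r with Polr2a was positive for Ccnt1 (0.847), Supt5 (0.783), Larp7 (0.734), Cdk9 (0.619), Hexim1 (0.591) and Nelfe (0.573) and negative for Ccnt2 (-0.802) and Cdk12 (-0.19).

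The genes around the members on the chromosome were listed after the values had been seen. Within 100 kb of Polr2a, 26 genes were tested, of which 1 rose and 6 fell (5.93% and 6.71% of all tested genes), with a median log2 fold change of -0.34 against 0.004 over all tested genes. Chrnb1, the acetylcholine receptor subunit gene 25.4 kb away on the same strand, fell from 2436, 1848 and 2344 to 1007, 983 and 829 (-1.23, limma adjusted p 0.000498). The neighbour that rose was the processed pseudogene Gm12307, 3.41 kb away on the strand of Polr2a, at 1 to 3 normalized counts in control against 7 to 18 in Taf4asKO (limma adjusted p 0.0255). It did not pass without Taf4asKO replicate 1 or 2 (adjusted p 0.106 and 0.0978). Both tested neighbours of Larp7 fell. Zgrf1 starts 0.14 kb from Larp7, at 127553489 on the opposite strand, which lies inside the Larp7 window printed above. Zgrf1 fell from 148, 187 and 156 to 83, 86 and 82 (-0.95 with SE 0.16, limma adjusted p 0.00516). Ank2, 37.7 kb from Larp7, fell by 0.62 on the log2 scale (limma adjusted p 0.0207) and did not pass without control replicate 1 (adjusted p 0.0600) or Taf4asKO replicate 2 or 3 (0.0992 and 0.0960). Nelfe has a similar neighbour, Skiv2l, 0.18 kb away on the opposite strand, with a log2 fold change of 0.08 (limma adjusted p 0.612). Of the neighbours tested around the other members, 2 of 11 fell around Cdk9, 1 of 8 around Ccnt1, 1 of 9 around Hexim1 and 2 of 13 around Nelfe, 1 rose and 1 fell of 12 around Supt5, and 0 of 3 and 0 of 5 passed in limma around Ccnt2 and Cdk12 (0 and 1 with an unadjusted p under 0.05). The neighbour that fell near Ccnt1 was Kansl2, a subunit of the NSL acetyltransferase complex that the study followed, 4.44 kb away (log2 fold change -0.62, limma adjusted p 0.0352), and it did not pass without any 1 Taf4asKO library (0.0842 to 0.148).

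The libraries held 12338676 to 14551732 normalized counts each. The targeted gene Taf4 had 613, 534 and 478 normalized counts in control against 631, 565 and 574 in those labelled Taf4asKO (log2 fold change 0.13, limma adjusted p 0.524), so the gene total, which includes exons outside the deletion, did not separate the labels. The study checked the deletion with other assays, which are not analysed here. By these it reported efficient deletion of the exons and almost no Taf4a transcript or protein. Per the study's methods, cells were sorted as negative for blood, endothelial and mesenchymal surface markers and positive for a muscle stem cell integrin or a fluorescent reporter. The study's re-analysis of sorted cells left a sizeable minority outside the sorted population. The muscle stem cell marker Pax7 was high in all 6 libraries, at 12082 to 13007 in control and 10363 to 11164 in Taf4asKO. These ranges did not overlap, and Pax7 did not pass (log2 fold change -0.21, limma adjusted p 0.161). Of 8 such markers 5 passed, 2 as higher (Sdc4, Vcam1) and 3 as lower (Myf5, Itga7, Cdh15). This and the marker counts that follow stand beside 12.6% of all tested genes. All 4 Schwann cell markers rose, with summed levels of 1144 to 2843 in control and 3441 to 4188 in Taf4asKO, and 2 of 4 mural cell markers rose (sums of 8295 to 12870 and 12607 to 14527). Of 6 fibro-adipogenic markers, 5 had a log2 fold change above 0 (median of the 6, 0.83) without passing, and 1, Col3a1, passed as lower. Col3a1 had means of 47012 in control and 15883 in Taf4asKO and so set the summed level of the list (53301 to 79195 in control, 33227 to 55257 in Taf4asKO). None of 5 endothelial markers (sums of 188 to 461 and 476 to 785, 3 with unadjusted p under 0.05) or 5 muscle fibre markers (1059 to 3415 and 1965 to 2520, 0 with unadjusted p under 0.05) passed in limma. With the replicate block, 4 fibro-adipogenic, 2 endothelial and 3 of 4 mural cell markers passed as higher, beside 18.1% of all tested genes in either direction. Of 6 haematopoietic markers 2 were analysed here and neither passed. The Schwann cell sum was 1144, 2843 and 2134 in control replicates 1, 2 and 3, the same order as Polr2a (2256, 2917 and 2617), and 3441, 4188 and 4006 in Taf4asKO, where Polr2a (15658, 12679 and 12945) had the opposite order. The part of such cells in the values of the 9 genes was not tested, and in bulk samples a change in the share of a cell type and a change in RNA per cell cannot be told apart. Cdk9 shares exon bases with Mir2861 and Mir3960 on its own strand, and Ccnt1 and Supt5 share 695 and 433 exon bases with antisense genes, as Polr2b, Brd2, Ell2, Nelfa, Nelfcd, Cdc73, Ssu72, Ints6, Ints13, Zfp36, Dusp1, Junb and Taf4 do with genes on the opposite strand. Fosl1 shares 1163 of its 2033 exon bases with Ccdc85b in this way. Per the study's methods, reads that overlapped several genes were not counted, and no source used here says if this was judged by strand, which leaves these values uncertain.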

How the data were processed

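Total RNA of sorted MuSCs was sequenced as single-end stranded libraries made with a low-input kit. The authors trimmed reads with Trimmomatic 0.39, aligned them to mm10 with STAR 2.6.0c, discarded reads with several positions, counted reads over exons with featureCounts 1.6.0, leaving out reads on several genes, and normalized with DESeq2 1.14.1. The deposited values are a score, namely these normalized counts rounded to whole numbers; size factors are not given in the sources used here, so raw depth was not used, and a count model was not applied. Genes with a mean of at least 5 were tested on log2(value + 1) with limma 3.58.1 in R 4.3.3 (lmFit, eBayes with trend, two-sided, Benjamini-Hochberg over 18562 genes), without covariates. The limits for passing, an adjusted p below 0.05 with at least a 1.3-fold difference, are those of the study. The same fit was also run on simulated counts. These had the same dispersion for every gene and no shared differences between libraries, so they do not show how the test behaves on these libraries.

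Replicate numbers come from the sample titles. The labels name no pairing or batch behind these numbers. Deviations of same-numbered libraries from the group means correlated at 0.235, 0.126 and 0.15. These correlations come from the same values, and so few libraries cannot settle a pairing. A fit with the number as a block was therefore run only as an alternative. The study's methods describe its replicates in general as biological. The labels do not say whether these libraries came from separate animals, and p-values measure the spread between them. All library pairs differed by more than sampling noise (lowest ratio of chi-square to degrees of freedom 4.17).

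The members and gene lists were chosen with earlier results of these data known. Genes named were the 9 members, Taf4, their complex partners and paralogs, up to 5 genes of lowest adjusted p past the threshold per list, and the 5 genes most like Polr2a. Other genes named (the neighbours, Paf1, Ints6 and Fosl1) were chosen after their values were seen. A result that the rule would name is not reported here. Exon lengths came from GENCODE M21, in which 99.8% of the gene identifiers were found, 75.7% at the same position (6 of the 9 members). Promoters came from RefSeq (GRCm38.p6). Alternatives were other scalings, filters and limits, a pseudocount of 0.1, and leaving out each library. No gene set test was made. Figures were drawn with matplotlib 3.10.9.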

Additional observations from a re-analysis of the deposited data

How the results depend on the processing

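The 9 members kept the sign of their log2 fold change under every scaling, filter, pseudocount and block tried, and moved by less than the spread between replicates; leaving out each library gave 2.31 to 2.49 for Polr2a, 0.72 to 0.80 for Hexim1, -0.94 to -0.71 for Larp7 and, across 0, -0.13 to 0.04 for Cdk12. Control levels per kb moved by more than 1 SD in 6 of 45 recomputed values, all with the longest transcript as length.

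Of all genes, 2347 passed (1101 higher, 1246 lower). With a fold of at least 2, 850 passed (330 higher, 520 lower), and with adjusted p under 0.01, 876 (331 higher, 545 lower). With the replicate block 3355 passed, 1688 of them higher. Leaving out each library gave 960 to 3121 (341 to 1616 higher, 595 to 1505 lower), with 1295, 962 and 960 without Taf4asKO replicate 1, 2 or 3. Of the 77 machinery genes, 8 passed (6 higher, 2 lower), 1 with a fold of at least 2 (1 higher, 0 lower), 2 with adjusted p under 0.01 (2 higher, 0 lower), and 2 to 9 when leaving out a library (2 to 7 higher, 0 to 2 lower), with 2 without any 1 Taf4asKO library and 5 without control replicate 3. Immediate early genes numbered 10, 16 with the replicate block, 2 with a fold of at least 2, 5 with adjusted p under 0.01 and 6 to 11 when leaving out a library. Under total-count scaling 7 of them passed, and under upper-quartile scaling 8, with 6 of the 77 machinery genes under either. Repair genes numbered 2, then 1 with a fold of at least 2, 0 with adjusted p under 0.01 and 0 to 2 when leaving out a library. Stricter limits lower these counts by construction. For the scalings, the left-out libraries and the replicate block the cause was not tested.

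Signs turned for 3 partners near 0: Ccnk reached 0.0143 without control replicate 2 (range when leaving out a library -0.1767 to 0.0143), Mepce 0.0009 without control replicate 1 (-0.1311 to 0.0009) and Nelfa 0.0023 without Taf4asKO replicate 2 (-0.2041 to 0.0023). The replicate block changed no call of a named gene other than those given with the results. Scaling moved the median of all genes to between -0.016 and 0.003. Nelfe, the member with the lowest counts, had the largest SE of the 9 (0.15).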

Other observations

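Protein-coding genes with a mean of at least 50 were sorted by genomic span into 5 groups of equal size, from 0.47 to 9.15 kb in the shortest group to 76.8 to 2257 kb in the longest. The median log2 fold change of these groups, shortest to longest, was 0.031, 0.019, 0.06, 0.08 and 0.045, and the genes passing as higher numbered 171, 164, 192, 203 and 223 of 2108 or 2109 genes each, against 238, 169, 160, 152 and 238 passing as lower. Among the 9 members Polr2a spans 24.6 kb and Cdk12 48.5 kb.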
